A study of Homo sapiens with 12 samples.

Results

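The UGT2B genes encode enzymes of the endoplasmic reticulum that attach glucuronic acid to steroids. The 6 members described here, UGT2B7, UGT2B10, UGT2B11, UGT2B15, UGT2B17 and UGT2B28, were taken by gene symbol from the 20044 genes of an Illumina bead array experiment, in which 11 of 47323 probes carry one of these symbols. LNCaP, an established human prostate cancer cell line that responds to androgen, received either pcDNA3.1_FoxA1, an expression plasmid for FOXA1 (6 arrays, called FOXA1), or the control plasmid pcDNA3.1_GFP (6 arrays, called GFP). Transfection used Lipofectamine2000, all cells grew in RPMI with serum, and they were harvested 48 h later for total RNA. It is a transient transfection, and the share of cells that took up plasmid is not given in the sources used here, and neither is the origin of the replicates. If they do not come from separate cultures, the p-values rest on technical spread alone. Arrays are called by plasmid and replicate number, for example FOXA1 6. In bulk RNA, fewer cells with a transcript and less of it per cell cannot be told apart.

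UGT2B enzymes use UDP-glucuronic acid, which UGDH makes in the cytosol, to turn lipid-soluble steroids into water-soluble conjugates that leave the cell. In prostate cells UGT2B15 and UGT2B17 conjugate dihydrotestosterone and its metabolites and so end the androgen signal, and in LNCaP cells androgen is known to lower the transcripts of both. FOXA1 is a forkhead pioneer factor of prostate epithelium, where it makes closed chromatin accessible to steroid receptors. The comparison asks how added FOXA1 affects gene expression, and here whether these enzymes differed between FOXA1 and GFP arrays.

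The genes lie together on chromosome 4. In the order of RefSeq's GRCh38.p14 annotation, UGT2B17, UGT2B15 and UGT2B10 come first, UGT2A3 follows, then UGT2B7, UGT2B11, UGT2B28 and UGT2B4. Promoter sequences of 4 of the 6 members matched in RefSeq's table: UGT2B7, UGT2B10, UGT2B11 and UGT2B15. The 250 bases before the start of 3 of them are shown because FOXA1 is the factor that was added and because they show how alike the paralogues are in sequence. Capitals mark the forkhead letters TGTTTAC or TATTTAC on either strand, which on the other strand read GTAAACA and GTAAATA. The sequences run from 5′ to 3′ on the gene's own strand, at chr4:69214749-69214998 (minus strand) for UGT2B11, chr4:68815744-68815993 (plus strand) for UGT2B10 and chr4:68670653-68670902 (minus strand) for UGT2B15.
UGT2B11: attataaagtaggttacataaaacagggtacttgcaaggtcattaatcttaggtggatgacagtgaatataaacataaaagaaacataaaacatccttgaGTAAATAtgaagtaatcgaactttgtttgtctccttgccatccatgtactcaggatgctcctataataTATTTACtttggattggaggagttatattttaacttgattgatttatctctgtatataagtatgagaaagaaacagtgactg
UGT2B10: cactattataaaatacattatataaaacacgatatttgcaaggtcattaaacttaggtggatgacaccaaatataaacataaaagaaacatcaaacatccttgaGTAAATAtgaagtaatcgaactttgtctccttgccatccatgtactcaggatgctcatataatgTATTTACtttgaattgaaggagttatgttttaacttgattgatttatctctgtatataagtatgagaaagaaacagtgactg
UGT2B15: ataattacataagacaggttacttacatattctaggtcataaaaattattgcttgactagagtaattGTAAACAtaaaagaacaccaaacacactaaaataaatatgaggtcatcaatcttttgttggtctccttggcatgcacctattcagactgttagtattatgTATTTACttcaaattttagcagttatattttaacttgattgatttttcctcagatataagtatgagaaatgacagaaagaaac

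UGT2B11 and UGT2B10 were 90.2% identical over an alignment of 254 positions, and each held TATTTAC on the gene's strand from base -82 to -76 before the start and again on the other strand. UGT2B15 was 71.4% identical to UGT2B11, with TATTTAC from -83 to -77 and TGTTTAC on the other strand from -183 to -177. UGT2B7, 65.1% identical to UGT2B11, held neither word in this window. One of these words stood in 3 of the 4 UGT2B promoters and in 5.27% of 35116 promoters of the same length. These matches describe letters, not binding. The motifs were chosen after the sequences were seen, and the 3 promoters resemble each other, so these shares are no test of enrichment.

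Values are the authors' normalised log2 intensities. The median of an array lay between 7.31 and 7.63 before normalization and at 7.43 after it. The background estimate used here is 7.65, the 95th percentile of 784 probes that are only in the non-normalized table, and 9578 genes had a mean above it. FOXA1 itself, on the probe used for it, stood at 13.29, 13.41 and 13.62 in the FOXA1 arrays and 13.01, 13.35 and 13.48 in the GFP arrays (lowest, median and highest). Its log2 difference was 0.13 ± 0.09 (SE), with an exact permutation p of 0.165 (two-sided, n = 6 against 6). It is not given here whether this probe reads the plasmid's transcript, so the values do not check the labels. Of 8 luminal prostate markers 7 were measured and all 7 stood above background. Of the measured markers of other types, none of 3 basal, 5 stromal or 4 leukocyte genes did, and 1 of 3 neuroendocrine genes (ENO2) did. Hepatocyte markers are listed because UGT2B genes are best known from liver: 3 of 6 measured (ALB, APOA1 and TTR) stood above background, and the mean level of the list ran from 7.45 to 7.72 over the FOXA1 arrays and from 7.54 to 7.74 over the GFP arrays.

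None of the 6 UGT2B genes differed between FOXA1 and GFP arrays beyond the spread between arrays. With limma over 20044 genes, 0 of 6 members passed an adjusted p of 0.05 as higher, where the share of all genes was 0%, and 0 as lower, where it was also 0%. At an unadjusted p under 0.05 there were 0 members, against 2.53% of all genes, and 0 members had groups that did not overlap, against 0.0998% of all genes. The log2 differences, FOXA1 minus GFP, were positive for 3 members and negative for 3, with a median of -0.00243, beside 0.00654 over all genes. The adjusted p in limma was 1.00 for each member.

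UGT2B17, which conjugates testosterone, dihydrotestosterone and their metabolites, stood above background on all 12 arrays. Its levels were 9.04, 9.75 and 10.19 in FOXA1 arrays and 9.12, 9.81 and 10.15 in GFP arrays (lowest, median and highest). The groups overlapped almost entirely: replicate 1 was the highest and replicate 5 the lowest array of each group. The means were 9.71 ± 0.39 in FOXA1 arrays and 9.74 ± 0.34 in GFP arrays (SD, n = 6 each), a log2 difference of -0.03 ± 0.17 (SE) (95% interval -0.40 to 0.33, exact permutation p = 0.857, n = 6 against 6). Without FOXA1 5 the difference was 0.10. The interval left out a level more than 1.26-fold higher or 1.32-fold lower in FOXA1 arrays. A further probe above background, ILMN_1752214, had 8.20 (FOXA1 4) as its lowest and 9.57 (FOXA1 1) as its highest FOXA1 value, beside 8.10 (GFP 5) and 9.57 (GFP 1) in GFP arrays, and a difference of -0.16 ± 0.25 (SE) in a fit over all probes. The other 2 probes of UGT2B17, ILMN_1801263 and ILMN_2373670, had means of 7.32 and 7.29, not above background, and differences of -0.04 and 0.01.

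UGT2B15, which prefers dihydrotestosterone and androstanediol, was spread more widely. Its levels were 7.12, 8.08 and 8.76 in FOXA1 arrays and 7.51, 8.01 and 8.61 in GFP arrays (lowest, median and highest). FOXA1 4 and GFP 3 lay below the background estimate, while replicate 1 was again the highest of each group. The means were 8.05 ± 0.61 in FOXA1 arrays and 8.06 ± 0.48 in GFP arrays (SD, n = 6 each), a log2 difference of -0.01 ± 0.25 (SE) (95% interval -0.55 to 0.52, exact permutation p = 0.965, n = 6 against 6). Its other probe, ILMN_1739624, stayed below background on all 12 arrays, with a mean of 7.15 and a difference of -0.03. Without FOXA1 4, the lowest array, the difference of UGT2B15 was 0.17.

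UGT2B28, an enzyme with activity towards androgens and bile acids, had the largest difference of the 6 members. Its levels were 7.63, 7.92 and 9.09 in FOXA1 arrays and 7.39, 7.86 and 8.83 in GFP arrays (lowest, median and highest). FOXA1 6 and GFP 6 stood apart from the rest of their groups, whose highest values were 8.16 (FOXA1 5) and 7.90 (GFP 1), and 3 arrays (FOXA1 3, GFP 2 and GFP 3) lay below background. The means were 8.08 ± 0.53 in FOXA1 arrays and 7.91 ± 0.49 in GFP arrays (SD, n = 6 each), a log2 difference of 0.17 ± 0.24 (SE) (95% interval -0.32 to 0.67, exact permutation p = 0.535, n = 6 against 6). The interval left out a level more than 1.59-fold higher in FOXA1 arrays. It includes any spread that same-numbered arrays share. With the replicate number as a block, limma gave an unadjusted p of 0.0512 and an adjusted p of 0.998. FOXA1 was higher in 5 of 6 numbers. The difference was 0.15 without FOXA1 6 and GFP 6 together and turned to -0.03 without FOXA1 6 alone, while it was 0.36 without GFP 6 alone.

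UGT2B11, a paralogue with no established role in androgen conjugation, followed the same arrays. Its levels were 8.29, 8.88 and 9.85 in FOXA1 arrays and 8.30, 8.73 and 9.70 in GFP arrays (lowest, median and highest), with replicate 6 highest and replicate 3 lowest in each group. The means were 8.91 ± 0.54 in FOXA1 arrays and 8.81 ± 0.48 in GFP arrays (SD, n = 6 each), a log2 difference of 0.10 ± 0.24 (SE) (95% interval -0.40 to 0.60, exact permutation p = 0.723, n = 6 against 6). Without FOXA1 6 the difference turned to -0.09, and without GFP 6 it was 0.27. The other probe of UGT2B11, ILMN_1810233, differed by 0.09 ± 0.21 (SE) in the fit over all probes.

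The 2 members best known from liver were not above background in their means. UGT2B7, which conjugates morphine and bile acids, had 7.40, 7.49 and 7.73 in FOXA1 arrays and 7.41, 7.50 and 7.61 in GFP arrays (lowest, median and highest), and only FOXA1 4 passed the estimate. UGT2B10, which conjugates nicotine and other amines, had 6.86, 7.28 and 7.76 in FOXA1 arrays and 7.005, 7.46 and 7.64 in GFP arrays, and only FOXA1 6 passed it. Their log2 differences were 0.01 ± 0.07 and -0.12 ± 0.14 (SE). At such levels intensity says little about the transcript.

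**Figure D1:**
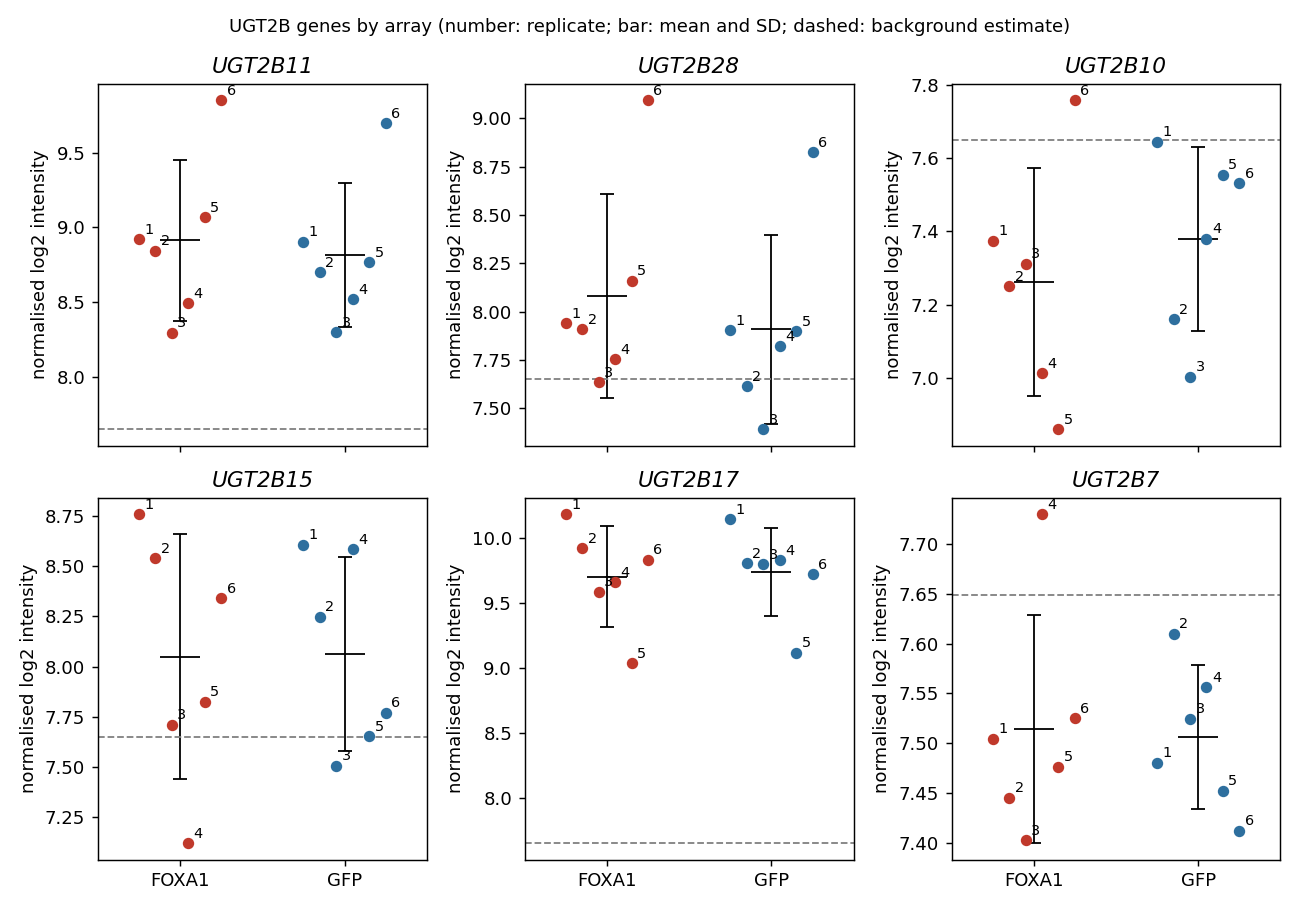
Normalised log2 intensity of the 6 UGT2B genes on each array, FOXA1 arrays left (red) and GFP arrays right (blue), with the replicate number at each point, mean and SD as bars and the background estimate of 7.65 as a dashed line; the vertical scales differ and do not start at 0. The groups overlap in every panel, and FOXA1 6 and GFP 6 are the highest arrays for UGT2B11 and UGT2B28.

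**Figure D2:**
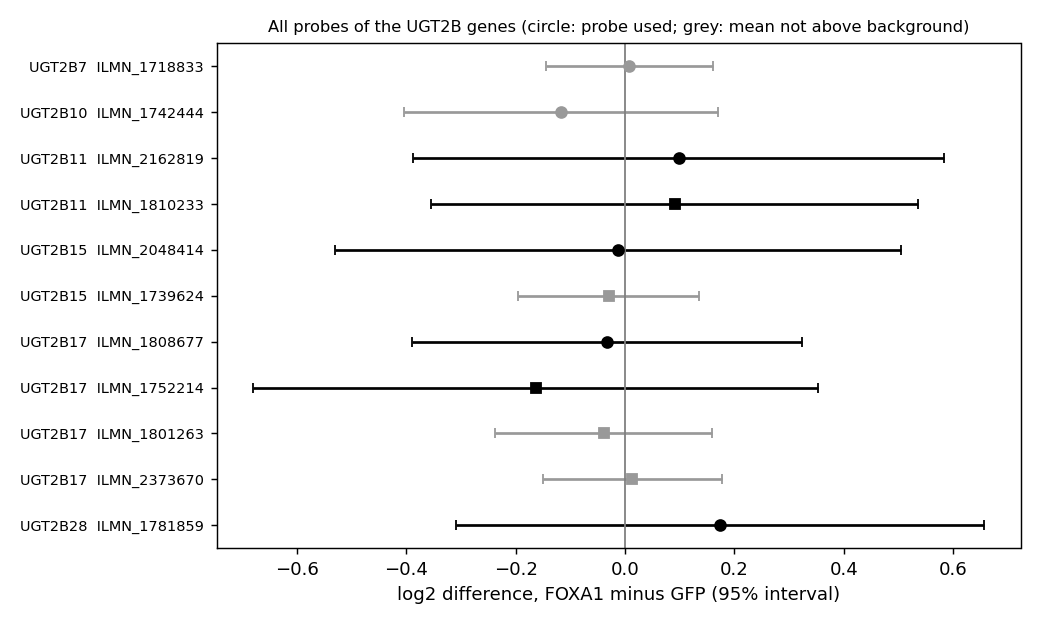
Log2 difference, FOXA1 minus GFP, of all 11 probes of the 6 genes with its 95% interval from limma over all probes; circles are the probes used, squares the others, and grey marks probes whose mean was not above background. The differences lie between -0.16 and 0.17, and every interval includes 0.

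The 4 members above background had a wider spread within a plasmid group than most genes. The within-group SD was 0.55 for UGT2B15, 0.51 for UGT2B11, 0.51 for UGT2B28 and 0.36 for UGT2B17, on the log2 scale, where the median over the 9578 genes above background was 0.19. These values stood at the 98.9th, 98.5th, 98.5th and 93.0th percentile of those genes. From the lowest to the highest of the 12 arrays UGT2B11 spanned 2.95-fold and UGT2B17 2.22-fold in intensity. The lowest arrays of UGT2B28 and UGT2B15 lay below background, and against the background estimate their ranges were at least 2.72-fold and 2.16-fold. FOXA1, by comparison, spanned 1.52-fold.

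UGT2B28 and UGT2B11 moved together over the arrays. Over the 15 pairs of members, UGT2B11 and UGT2B28 had a Pearson's r of 0.96 (permutation p = 2.0e-05, adjusted over the pairs 0.0003, n = 12 arrays) and a Spearman's rho of 0.94 (permutation p = 3.0e-05, adjusted 0.00045). Within the groups r was similar. It was 0.97 over the 6 FOXA1 arrays (adjusted exact permutation p = 0.0208). Over the 6 GFP arrays it was 0.96 and did not pass (adjusted exact permutation p = 0.146). The relation over the arrays did not rest on FOXA1 6 and GFP 6 alone, the arrays farthest from the median, without which r was 0.86. Both genes were highest on replicate 6 and lowest on replicate 3 in each group, so the values within the groups may repeat a single pattern. The permutation takes the 12 arrays as exchangeable, and its p may therefore be too small. Of the 9577 other genes above background, UGT2B28 was the gene with the highest r to UGT2B11, and UGT2B11 was likewise the highest for UGT2B28. With the probes used, UGT2B17 had r = 0.04 with UGT2B11 and r = -0.02 with UGT2B28, and UGT2B15 had r = 0.26 and r = 0.16 with them (adjusted permutation p from 0.626 to 0.941). The other UGT2B11 probe above background, ILMN_1810233, had r = 0.35 with the UGT2B17 probe used (rho = 0.66, permutation p of rho 0.0233, adjusted over 55 pairs of probes 0.142). With ILMN_1752214 it had r = 0.44 (rho = 0.52). The low r of UGT2B17 with UGT2B11 thus changed with the UGT2B11 probe, and this change was not tested. UGT2B28 had r = -0.10 with ILMN_1752214.

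UGT2B15 and UGT2B17 were also related, to a degree that depended on the UGT2B17 probe. With the probe used for UGT2B17, r was 0.61 (permutation p = 0.0337, adjusted over the pairs 0.249, n = 12 arrays) and rho was 0.80 (permutation p = 0.00296, adjusted 0.0222), so the rank correlation passed the threshold and Pearson's r did not. The value was 0.60 within FOXA1 arrays, 0.62 within GFP arrays and 0.63 without FOXA1 1 and FOXA1 4, the 2 arrays farthest from the median. Without FOXA1 5 and GFP 5, the lowest arrays for UGT2B17, r was 0.77. With the probe ILMN_1752214 in its place, r with UGT2B15 was 0.88 (permutation p = 0.00037, adjusted over 55 pairs of probes 0.00678, n = 12 arrays), with 0.94 within FOXA1 arrays and 0.84 within GFP arrays.

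Probes of the same gene were not always the most alike. The 2 UGT2B17 probes above background had r = 0.82 with each other (permutation p = 0.00036, adjusted over 55 pairs 0.00678), less than the r of ILMN_1752214 with UGT2B15. The 2 UGT2B11 probes had r = 0.80 (permutation p = 0.00162, adjusted 0.0223), less than the r of 0.96 between ILMN_2162819 and UGT2B28. The other UGT2B11 probe, ILMN_1810233, had r = 0.77 with UGT2B28 (adjusted permutation p = 0.0261) and r = 0.70 with UGT2B15 (adjusted permutation p = 0.0775). No difference between correlations was tested. The permutations, here and for the other correlations, treat the 12 arrays as exchangeable. Where same-numbered arrays share deviations, these p-values can be too small. Probe and transcript sequences are not used here, and binding of 1 probe by several paralogues was not tested. Over all probes, 5 of 55 pairs passed an adjusted p of 0.05 by Pearson's r.

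**Figure D3:**
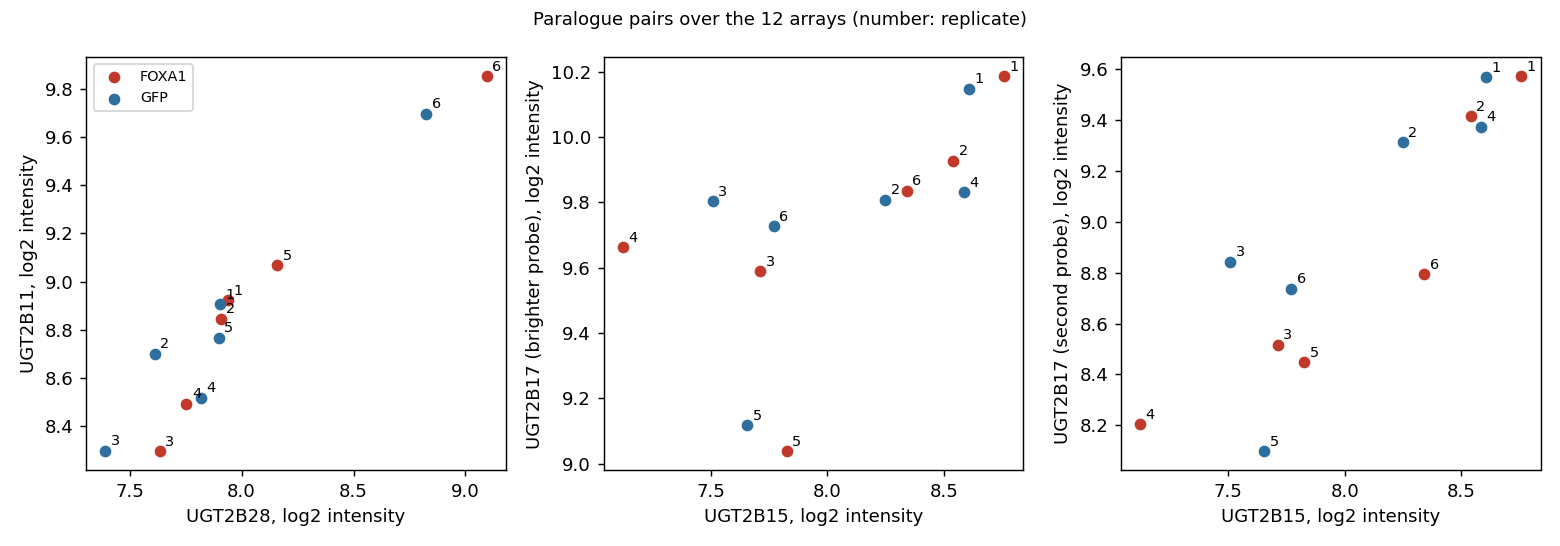
Each point is 1 array (red FOXA1, blue GFP, number the replicate) and both axes are normalised log2 intensity: UGT2B11 against UGT2B28 at left, and UGT2B17 against UGT2B15 with the brighter UGT2B17 probe in the middle and ILMN_1752214 at right. Pearson's r is 0.96, 0.61 and 0.88, and FOXA1 and GFP arrays are interspersed in each panel.

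**Figure D4:**
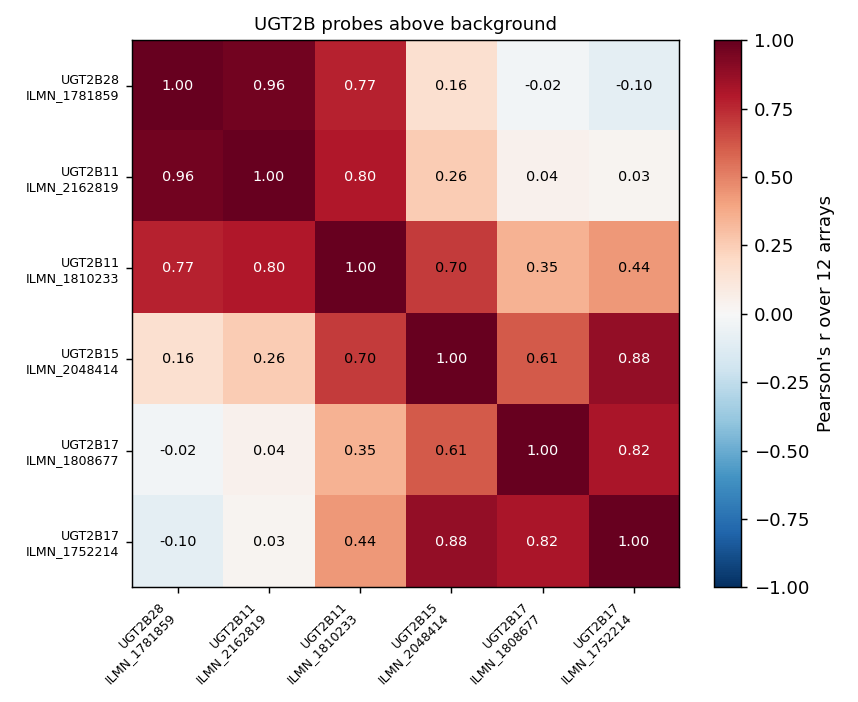
Pearson's r over 12 arrays between the 6 UGT2B probes with a mean above background, blue negative and red positive. UGT2B28 with ILMN_2162819 of UGT2B11 (0.96) and UGT2B15 with ILMN_1752214 of UGT2B17 (0.88) are the highest values off the diagonal, while UGT2B28 and the UGT2B17 probes lie at -0.02 and -0.10.

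Other measures varied over the same arrays. Each of the 4 members above background was set against FOXA1 and against the means of androgen-induced, androgen-repressed and hypoxia genes, 16 relations of which 0 passed an adjusted p of 0.05 by Pearson's r and 2 lay under an unadjusted 0.05. The list means are centred by gene but not scaled, so the genes with the widest spread weigh most. Among the androgen-induced genes the widest was NDRG1 (SD 0.62 in FOXA1 arrays and 0.67 in GFP arrays). How far the relations with that list rest on NDRG1 was not tested. UGT2B15 was lower on arrays where androgen-induced genes (11 above background, among them KLK3, TMPRSS2 and FKBP5) were higher, with r = -0.75 (permutation p = 0.00556, adjusted 0.0890, n = 12 arrays) and rho = -0.72 (permutation p = 0.0101, adjusted 0.162). That r was -0.82 within FOXA1 arrays, -0.81 within GFP arrays and -0.68 without FOXA1 1 and FOXA1 4. UGT2B17 had r = -0.54 with the same list (permutation p = 0.0705, adjusted 0.376) and rho = -0.66 (permutation p = 0.0214, adjusted 0.171), and r = -0.68 without FOXA1 5 and GFP 5. UGT2B28 and UGT2B11 had r = 0.15 and r = -0.01 with it. Without FOXA1 6 and GFP 6, their 2 arrays farthest from the median, these were -0.10 and -0.40.

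Hypoxia genes, 9 of which stood above background, peaked on FOXA1 3 and GFP 3 (list means of 0.88 and 0.99, log2, relative to the average array), the arrays on which UGT2B11 and UGT2B28 were lowest in their groups. The mean of androgen-induced genes was also highest in each group on FOXA1 3 (0.24) and GFP 3 (0.09), so the lists are not separate measures there. UGT2B11 had r = -0.57 with the hypoxia list (permutation p = 0.0447, adjusted 0.357, n = 12 arrays) and rho = -0.56 (permutation p = 0.0616, adjusted 0.246). Over the 10 arrays other than FOXA1 6 and GFP 6, r was -0.89. UGT2B28 had r = -0.43, and -0.74 without those 2 arrays. UGT2B15 had r = -0.37, and -0.32 without FOXA1 1 and FOXA1 4, its 2 arrays farthest from the median. It had -0.40 without FOXA1 6 and GFP 6, and -0.59 without FOXA1 5 and GFP 5. UGT2B17 had r = 0.18, 0.19 without FOXA1 6 and GFP 6, and -0.49 without FOXA1 5 and GFP 5. With FOXA1 the 4 members had r between -0.44 and 0.11, and with androgen-repressed genes between -0.23 and 0.08, none past the threshold before or after adjustment. Some of these values differed between the groups: UGT2B15 with FOXA1 had r = -0.85 within FOXA1 arrays and -0.10 within GFP arrays, and UGT2B15 with androgen-repressed genes had r = 0.27 within FOXA1 arrays and -0.75 within GFP arrays, and -0.72 without FOXA1 1 and FOXA1 4. These differences were not tested. The part of these list means in the spread of the UGT2B genes was not tested.

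**Figure D5:**
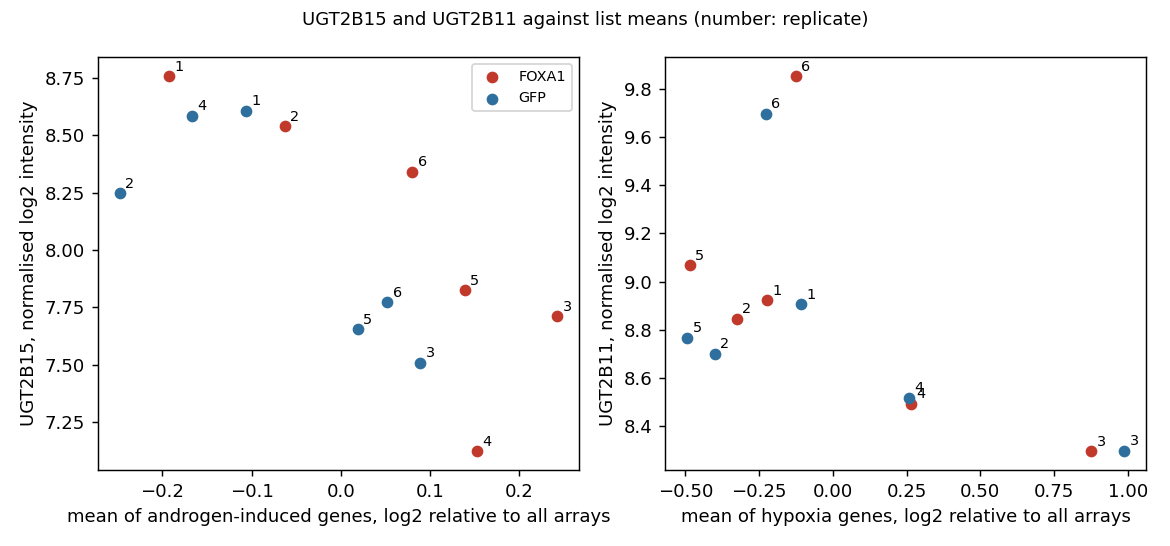
Each point is 1 array (red FOXA1, blue GFP, number the replicate): UGT2B15 against the mean of 11 androgen-induced genes at left, and UGT2B11 against the mean of 9 hypoxia genes at right, in normalised log2 intensity against log2 relative to the mean of all arrays. Pearson's r is -0.75 and -0.57, and replicate 6 of both groups lies above the other arrays at right.

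The genes whose pattern over the 12 arrays was most like that of UGT2B11 and UGT2B17 were read from the 9577 other genes above background, leaving out UGT2B genes. For UGT2B11 they were HPGD, which inactivates prostaglandins (r = 0.88), the ephrin receptor EPHA6 (0.86), IMP3 (0.82), TTPAL (0.82) and the desmosomal cadherin DSG2 (0.81), and the most opposed were TSPAN31 (-0.93), ANKRD13C-DT (-0.90), TCEA3 (-0.89), UROD (-0.89) and PHTF1 (-0.86). For UGT2B17 they were ZNF511 (0.88), CDC42EP2 (0.86), the mitotic kinase AURKB (0.84), SLC22A10 (0.83) and the centromeric histone CENPA (0.81), and the most opposed were TMEM91 (-0.94), PACSIN1 (-0.91), PPP4R4 (-0.90), NFIL3 (-0.89) and FHIP2A (-0.89). UGT2B15 ranked 127th by its r with UGT2B17. These values describe 12 arrays that share their processing, and no test goes with them.

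No gene of the cosubstrate's supply passed the test. Of 6 genes of UDP-glucuronate supply and removal, 0 passed as higher and 0 as lower, with a median log2 difference of 0.02 beside 0.00654 over all genes. UGDH, the enzyme that makes UDP-glucuronic acid, had 9.84 ± 0.33 in FOXA1 arrays and 9.99 ± 0.21 in GFP arrays (SD, n = 6 each), a difference of -0.15 ± 0.14 (SE), and UGP2, which makes UDP-glucose, differed by 0.06. Of 16 other UGT genes 1, UGT1A3, stood above background, with a difference of -0.02, and the list had 0 genes past the threshold either way and a median of -0.02. UGT1A genes share their 3′ exons, so probes may not tell them apart. Of 15 measured enzymes that make or remove the steroid substrates 6 stood above background and 0 passed either way, with a median of -0.00621; SRD5A1, which makes dihydrotestosterone, differed by 0.10, and AKR1C4, a hydroxysteroid dehydrogenase, by -0.11.

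Transporters and regulators gave no call either. Of 4 measured genes of glucuronide efflux, ABCC4, an export pump of organic anions, was the 1 above background, with a difference of 0.21 ± 0.19 (SE), and the median was 0.07. Of 8 measured factors tied to UGT2B transcription 4 stood above background and the median was 0.01; the nuclear receptor PPARG differed by -0.11. Androgen-induced genes had 11 of 12 positive differences, where 52.8% of all genes had one, and a median of 0.15. FKBP5, a co-chaperone, differed by 0.21, HPGD by 0.20, TMPRSS2, a surface protease, by 0.20 and KLK3, prostate-specific antigen, by 0.04. ZBTB16 went the other way (-0.10). The mean of the list by array overlapped between the groups, from -0.19 to 0.24 in FOXA1 arrays and from -0.25 to 0.09 in GFP arrays. Androgen-repressed genes had 6 of 8 negative differences, where 47.2% of all genes had one, and a median of -0.10, with the growth factor receptor MET at -0.20 and the kinase inhibitor CAMK2N1 at -0.32, and hypoxia genes had a median of -0.01, with ADM at -0.12 and LDHA at 0.10. In each of these lists 0 genes passed as higher and 0 as lower. Genes of a list are read on the same arrays, and the lists were chosen with earlier results of these data known. Their counts of signs are therefore no independent test.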

How the data were processed

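The authors deposited 2 tables of log2 intensities, of 48107 and 47323 probes. The larger is non-normalized per the file headers. The smaller is taken as normalized from its values: the medians of its columns are nearly equal, and it keeps the rank order of the larger. How the authors corrected background and normalized, and with which programs, is not given in the sources used here. Values of the smaller table were used as deposited. Probes were named through the platform annotation: 30113 have 1 symbol, 8 have several and 17202 are unlisted and unnamed here. Left out were 6 probes that lack a value on some array. Each gene is read by its probe with the highest mean, with no filter on dim genes, which gave 20044 genes. The background estimate comes from the 784 probes of the non-normalized table alone, carried to the normalized scale by interpolation on each array. They have no stated role.

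FOXA1 was set against GFP in R 4.3.3 using limma 3.58.1 (lmFit, then eBayes, two-sided, Benjamini-Hochberg adjustment over all genes, threshold 0.05) and by exact permutation over 924 arrangements, for which the smallest p is 0.00216. Correlations were tested with 100000 permutations, two-sided, and adjusted over their family. Precision is set by the 12 arrays: for genes above background, the 95% interval reached a median of 0.22 (log2) to each side. The fit and the correlation test were tested on simulated data. The members and lists were chosen with earlier results of these data known. Genes were named by rule: the members with all their probes, FOXA1, up to 2 genes above background in each list with the smallest p, UGDH, KLK3, TMPRSS2 and CAMK2N1, and the 5 genes most like and most opposed to each of 2 members. Some genes of the rule and lists are not analysed here. Alternatives were other normalizations, background correction with normexp, filters, the mean over probes, the replicate number as a block, a variance trend, array weights and each array left out.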

Additional observations from a re-analysis of the deposited data

Results flagged for a closer look

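UGT2B28 on FOXA1 6 stood at 9.09, apart from the other 5 FOXA1 arrays, of which the next was at 8.16, a gap of 0.640 of the group's range. UGT2B28 on GFP 6 stood at 8.83, with the next GFP array at 7.90, a gap of 0.643 of the range. UGT2B7 on FOXA1 4 stood at 7.73, with the next at 7.53, a gap of 0.625 of the range, in a gene whose mean is not above background. The critical value for 6 arrays is 0.625. Of 14 groups of 6 arrays looked at (6 members and FOXA1, in each plasmid group), chance gives a flag in about 1 of 20.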

How the results depend on the processing

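The count of genes past the threshold was 0 in each direction in every fit, by limma with other normalizations, normexp, filters, all probes, a variance trend, array weights, the replicate number as a block and each array left out. The sign of several small member differences was not fixed. UGT2B7 turned to -0.0032 with array weights and to -0.013 without FOXA1 6 and GFP 6. UGT2B15 turned to 0.0045 with median centring and 0.035 with array weights, and UGT2B17 to 0.041 with median centring, 0.00099 with array weights and 0.013 by its probe ILMN_2373670. With single arrays left out, UGT2B7 ran from -0.035 to 0.030, UGT2B10 from -0.22 to -0.037, UGT2B11 from -0.090 to 0.27, UGT2B15 from -0.15 to 0.17, UGT2B17 from -0.16 to 0.10, UGT2B28 from -0.029 to 0.36 and FOXA1 from 0.070 to 0.16, each with an adjusted p of at least 0.991 in limma. The cause was not tested.

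Same-numbered arrays deviated together for 5 of 6 numbers (r from 0.23 to 0.71 over genes above background) but not for number 4 (r = -0.29). Of 12 arrays 4 correlated best with their own number. These values do not exclude deviations shared by number. The sources used here do not say whether same-numbered arrays are pairs, and the main fit does not take them as pairs. Its SE, intervals and p-values, and the exact permutation p, therefore include any spread that same-numbered arrays share. With the replicate block in limma, 659 genes lay under an unadjusted 0.05, against 508 without it, and 0 passed after adjustment. The member differences are the same under the block by design, since each number has an array of each plasmid. For UGT2B28 (0.17, FOXA1 higher in 5 of 6 numbers) limma gave an unadjusted p of 0.0512 under the block and 0.471 without it, and an adjusted p of 0.998 under the block.

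The r between UGT2B11 and UGT2B28 ran from 0.94 to 0.97 with single arrays left out. Within the 6 FOXA1 arrays it was 0.97 and passed (adjusted exact permutation p = 0.0208). Within the 6 GFP arrays it was 0.96 and did not pass (adjusted exact permutation p = 0.146), and 0 pairs passed there. UGT2B15 and UGT2B17 ran from 0.53 to 0.70 and passed without FOXA1 5 and GFP 5 (0.77), where 4 pairs passed in place of 1, and with the probe ILMN_1752214 (0.88). The r values near 0 changed sign. UGT2B11 with UGT2B15 was -0.067 within GFP arrays and ran from 0.15 to 0.42. UGT2B11 with UGT2B17 was -0.065 without FOXA1 6 and GFP 6 (the same 2 arrays are the farthest from the median) and -0.015 within GFP arrays, and ran from -0.032 to 0.16, while with the UGT2B11 probe ILMN_1810233 it was 0.35 and, with ILMN_1752214 for UGT2B17, 0.44. UGT2B15 with UGT2B28 was -0.068 within GFP arrays and ran from 0.040 to 0.30. UGT2B17 with UGT2B28 was 0.17 with median centring, 0.017 without FOXA1 5 and GFP 5 (again the farthest) and 0.038 within FOXA1 arrays, and ran from -0.14 to 0.052. The alternatives without FOXA1 6 and GFP 6 and without FOXA1 5 and GFP 5 were chosen after seeing the data. Levels near 7.65 limit what UGT2B7 and UGT2B10 can show.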
